A study of Homo sapiens with 4 samples.

Results

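The proteasome is the cell's main protease for proteins tagged with ubiquitin. Its 20S core is a barrel of alpha and beta rings with the cutting sites inside, and a 19S cap recognises, unfolds and feeds in the substrate. Myeloma cells make and secrete large amounts of antibody and are sensitive to drugs that block the core's PSMB5 site. Proteasome genes were taken as the rows of the comparison of OSSL_325096 with DMSO whose symbol is PSM, a letter from A to G and a number. The rule matched 46 of 57773 genes, and it used no measured value. They comprise 6 alpha and 7 constitutive beta subunits of the core, 4 tissue- or cytokine-restricted beta subunits, 6 ATPases and 11 other subunits of the cap, 3 chaperones that build the cap's base, 4 activators, the regulator PSMF1 and 4 chaperones that build the core.

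The study sequenced the polyadenylated RNA of KMS12PE and KMS11, established human multiple myeloma cell lines, after treatment with OSSL_325096 at 1 µM, or with the solvent DMSO. The compound is named only by this code. There were 4 libraries, so that OSSL_325096 had 1 library of KMS12PE and 1 of KMS11, and DMSO likewise. The libraries within a treatment thus come from different lines, and the spread between them holds the difference between the lines. The sources used here give neither the treatment time, nor whether cultures were grown separately, nor whether the authors' comparison took account of the line. The only values were those of the authors' own comparison over both lines: a log2 fold change of OSSL_325096 over DMSO, a p-value, and a mean RPKM (reads scaled to transcript length and library size) for whichever treatment had more. Single-library values were not analysed here, and sequencing depth is unknown. With RNA of whole cultures, fewer cells of a kind and less RNA per cell cannot be told apart.

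The libraries carried the RNA of plasma cells. In the authors' deposited table all 6 plasma cell markers were above 10 RPKM, led by XBP1 at 180 RPKM and IRF4 at 174 RPKM. By contrast, all 7 markers of B, T and myeloid cells were below 1 RPKM there, and MS4A1 and CD3D were listed at 0. The translocation-driven genes FGFR3 (555 RPKM), CCND1 (126 RPKM) and MAF (59.6 RPKM) were present in the authors' deposited table. The standard errors that the p-values imply under a normal test (implied SE) were 1.83 for CCND1 and 1.94 for MAF on the log2 scale, and larger still for FGFR3, against a median of 0.92 for the proteasome genes.

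Proteasome transcripts were abundant, with a median of 31.9 RPKM against 6.76 RPKM for all genes of at least 1 RPKM, and their fold changes between OSSL_325096 and DMSO lay close to 1. Of the 46 genes, 45 had a fold change and all 45 were above 1 RPKM, while PSMB11, the beta subunit of the thymus, was listed at 0 RPKM. No member reached 1.5-fold in either direction, against 9.90% of the 11324 genes of at least 1 RPKM and 7.38% of the 7769 genes within the members' own range of 3.56 to 276 RPKM. That range is wide and does not match the members in level. Their median of 31.9 RPKM lay above the upper quartile of all genes, 16.9 RPKM. The fold changes leaned above 0 in 34 of the 45 members (75.6%), against 51.0% of all genes and 55.2% of genes within that range. Their median log2 fold change was 0.15 (quartiles 0.02 and 0.20), corresponding to 1.11-fold, against 0.01 (quartiles -0.21 and 0.22) for all genes. At a smaller size, 5 members (11.1%) were at least 1.2-fold higher, against 21.2% of all genes, and 3 (6.67%) at least 1.2-fold lower, against 19.9%. The 5 were PSMD9, PSMD1, PSMD3, PSMB6 and PSMD6, and the 3 were PSMG2, PSMA4 and PSMA8. The plasma cell markers spread more widely, with 5 of 6 below 0, a median log2 fold change of -0.51, and 4 of 6 at least 1.5-fold from 1. In the authors' deposited table CD38 had -0.73 (implied SE 1.29), IRF4 -0.67 (implied SE 1.03), TNFRSF17 -0.66 (implied SE 0.91) and SDC1 0.60 (p = 0.616). Adjusted p-values were under 0.05 for 0 of the 6, and their part in the proteasome values was not tested.

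None of these differences passed a test. After Benjamini-Hochberg adjustment of the authors' p-values over the 11324 genes, 0 of 45 members were under 0.05 (0% of all genes), and unadjusted p-values under 0.05 were found for 0 members and 0.0442% of all genes. In the authors' deposited table the members' unadjusted p-values ran from 0.683 to 0.986, and the false discovery rate was 0.999995 for every gene. The standard error implied by each p-value, if it came from a two-sided normal test, had a median of 0.92 on the log2 scale for the members. All 45 implied standard errors were larger than the fold change they belong to, as were those of 99.4% of all genes. At that error only a difference of 3.50-fold or more would give an unadjusted p of 0.05, so smaller ones were not detectable in the deposited comparison. That limit belongs to the comparison over both lines and not to one of treatments within each line, which needs single-library values.

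The members spread much less among themselves than the implied SE of any of them, which may hold the difference between the lines. The standard deviation of the log2 fold change across the 45 members was 0.18, against 0.40 across all genes. The interquartile range was 0.19 for the members, 0.42 for all genes and 0.40 for genes within the members' range of RPKM. Members are separate genes measured in the same 4 libraries and are not replicates of the treatment.

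**Figure D1:**
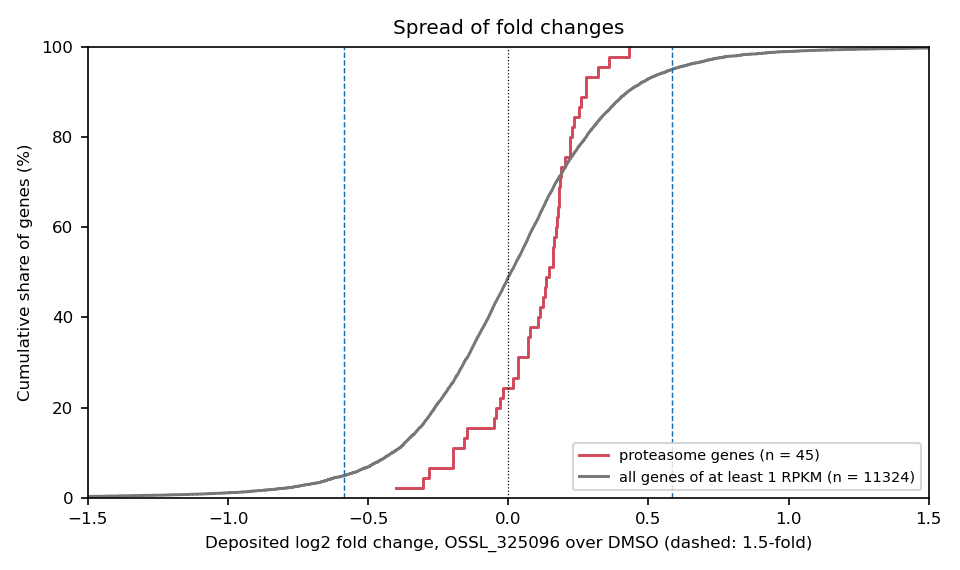
Cumulative share of genes (vertical axis, %) by deposited log2 fold change, OSSL_325096 over DMSO (horizontal axis), for the 45 measured proteasome genes and for all 11324 genes of at least 1 RPKM. Dashed lines mark 1.5-fold, beyond which lie 0 members and 9.90% of all genes; genes beyond the axis are not drawn.

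The ends of the range were held by assembly chaperones. PSMD9, which helps to build the ATPase ring of the cap, was highest, at 0.43 (log2) in the authors' deposited table (1.35-fold, implied SE 1.07, p = 0.689, 3.61 RPKM). At the other end PSMG2, which pairs with PSMG1 to assemble the alpha ring, was lowest at -0.40 (1.32-fold lower, implied SE 1.00, p = 0.687, 24.3 RPKM in the authors' deposited table). In the table's hg19 coordinates PSMD9 lies at chr12:122326637-122356203 and PSMG2 at chr18:12658737-12725739.

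PSMD9 and PSMG2 both held a promoter motif, as did other members across the range. RefSeq promoter windows, 250 bases before to 50 after a start (GRCh38.p14), were found for 40 of the 46 genes. The letters TGACNNNGC, the core of the antioxidant response element to which NFE2L1 and related factors bind, were searched on both strands. They were in the windows of 15 of the 40 genes (37.5%) and of 16.1% of all 27305 genes with a window. The members' windows had a median GC content of 62.3%, against 58.7% for all windows, and its part in these shares was not tested. The windows are shown for the 3 members with the highest fold change and the 2 with the lowest among those that hold the letters, 5′ to 3′ on the strand of the gene, with each match, on either strand, in capitals. They are chr12:121888540-121888839 (PSMD9, + strand), chr2:231056617-231056916 (PSMD1, + strand), chr17:39980557-39980856 (PSMD3, + strand), chr15:78540536-78540835 (PSMA4, + strand, 1 of its listed starts) and chr18:12658488-12658787 (PSMG2, + strand, 1 of its listed starts).
PSMD9: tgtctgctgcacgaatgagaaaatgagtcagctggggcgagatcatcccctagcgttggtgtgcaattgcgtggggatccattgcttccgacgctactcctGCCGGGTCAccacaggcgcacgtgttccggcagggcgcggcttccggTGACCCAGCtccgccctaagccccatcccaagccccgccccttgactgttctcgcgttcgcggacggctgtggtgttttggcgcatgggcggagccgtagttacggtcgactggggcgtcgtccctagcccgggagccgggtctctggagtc
PSMD1: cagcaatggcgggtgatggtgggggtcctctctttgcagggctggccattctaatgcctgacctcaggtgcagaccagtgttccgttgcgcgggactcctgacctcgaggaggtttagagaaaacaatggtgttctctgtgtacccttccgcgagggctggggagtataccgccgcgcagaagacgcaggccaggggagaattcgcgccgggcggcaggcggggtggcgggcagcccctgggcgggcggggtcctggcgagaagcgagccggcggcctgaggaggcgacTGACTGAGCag
PSMD3: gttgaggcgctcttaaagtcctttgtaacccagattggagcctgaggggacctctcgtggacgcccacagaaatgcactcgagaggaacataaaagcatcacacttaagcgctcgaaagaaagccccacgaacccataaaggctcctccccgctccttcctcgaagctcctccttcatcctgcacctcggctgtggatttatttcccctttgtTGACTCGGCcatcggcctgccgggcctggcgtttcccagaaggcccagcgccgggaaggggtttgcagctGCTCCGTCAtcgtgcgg
PSMA4: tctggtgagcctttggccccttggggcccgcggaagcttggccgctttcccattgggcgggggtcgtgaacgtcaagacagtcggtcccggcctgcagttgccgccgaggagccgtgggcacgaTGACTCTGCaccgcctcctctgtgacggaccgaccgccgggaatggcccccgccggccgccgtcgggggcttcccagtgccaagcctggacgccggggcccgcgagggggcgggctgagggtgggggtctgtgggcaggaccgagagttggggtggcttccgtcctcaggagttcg
PSMG2: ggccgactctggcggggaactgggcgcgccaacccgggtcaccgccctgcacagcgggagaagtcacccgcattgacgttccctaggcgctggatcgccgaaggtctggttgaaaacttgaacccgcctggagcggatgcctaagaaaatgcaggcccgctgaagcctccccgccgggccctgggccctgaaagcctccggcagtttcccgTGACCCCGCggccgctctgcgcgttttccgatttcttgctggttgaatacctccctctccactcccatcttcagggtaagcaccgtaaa

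PSMD9 and PSMD3 each carried a pair of matches, and the other windows shown carried 1 each. The match of PSMD1 and 1 of the 2 of PSMD3 lie after the start of the gene. Members with the letters had a median log2 fold change of 0.17, with 10 of 15 above 0. Those without them had 0.13, with 19 of 24 above 0. PSMD6 and PSMA8, also at least 1.2-fold from 1, had windows without the letters. The letters GAANNTTC, a pair of facing heat shock element units and the same on both strands, were in 0 of the 40 genes' windows and in 8.21% of all genes' windows. They were present in windows of HSPA1B, HSPA8 and DNAJB1, heat shock genes chosen for this check after their fold changes were seen, but not in that of HSPH1. The letters CCAAT were in 19 of the 40 (47.5%) and in 39.7% of all genes. The motifs were searched independently, so that a base could count toward more than 1. A match of letters does not show that a factor binds, and its absence says only that these letters are not in the window.

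**Figure D2:**
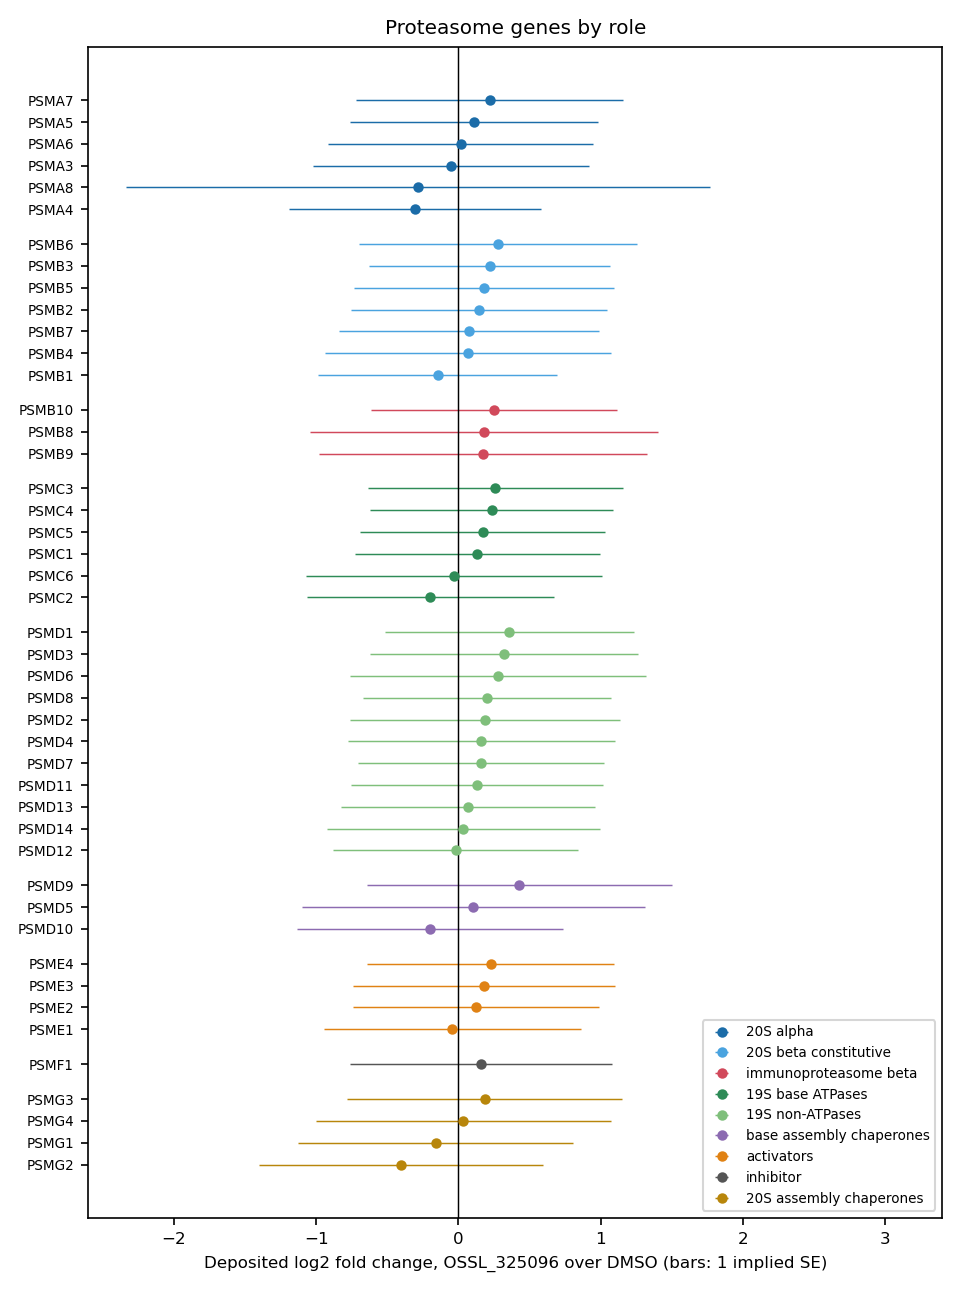
Each of the 45 measured proteasome genes (rows) with its deposited log2 fold change, OSSL_325096 over DMSO (horizontal axis), coloured by role and ordered by value within a role. Bars are 1 implied SE; every bar crosses 0, and the points lie between -0.40 (PSMG2) and 0.43 (PSMD9).

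Alpha subunits form the outer rings of the core, whose tails gate the entry. Of 6 measured, 3 were above 0 and 3 below, with a median of -0.02. PSMA7 was the highest of them, with a log2 value of 0.22 (implied SE 0.94) at 198 RPKM in the authors' deposited table. PSMA5 had 0.11 and PSMA6 0.02 there, while PSMA3 had -0.05. PSMA4, the homologue of the yeast subunit whose tail closes the gate, stood at -0.30 in the authors' deposited table (implied SE 0.89, p = 0.732, 47.8 RPKM). PSMA8, which replaces PSMA7 in the testis, was listed at -0.28 and only 3.56 RPKM, with an implied SE of 2.05. The next largest implied SE of any member was 1.22 (PSMB8).

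The remaining alpha genes carry altered names in the authors' deposited table and are not matched by the rule. The row PSMA2_2, whose identifier is that of PSMA2, had 123 RPKM and a log2 fold change of -0.15. The row PSMA1_2, with the identifier of PSMA1, had 26.2 RPKM and -0.03 in the authors' deposited table. The row PSMA1_1 lies wholly within PSMA1_2 on the same strand and had -0.92 (implied SE 1.14, 9.69 RPKM in the authors' deposited table). PSMA2_1, which overlaps PSMA2_2, had -0.24 at 1.96 RPKM in the authors' deposited table. Because these rows lie on top of one another, the division of reads between them is uncertain. With PSMA1_2 and PSMA2_2 counted, 34 of 47 genes were above 0 and the median was 0.13.

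Of the 7 constitutive beta subunits 6 were above 0, with a median log2 fold change of 0.15. The catalytic subunits are PSMB5 (chymotrypsin-like), PSMB6 (caspase-like) and PSMB7 (trypsin-like). PSMB6 had 0.28 in the authors' deposited table (implied SE 0.98, 82.1 RPKM), PSMB5 0.18 (implied SE 0.91, 41.3 RPKM) and PSMB7 0.08 (implied SE 0.91, 58.0 RPKM). The 95% interval of PSMB5 (hg19 chr14:23485752-23504439), from its implied SE, ran from -1.61 to 1.97. It thus included both a more than 3-fold decrease and a more than 3-fold increase. Like the implied SE, that interval belongs to the comparison over both lines and is not one of the treatment effect within a line. Among the non-catalytic beta subunits PSMB4 was the most abundant proteasome transcript of all, at 276 RPKM and a log2 difference of 0.07 (implied SE 1.01) in the authors' deposited table. PSMB3 had 0.22 at 106 RPKM there (implied SE 0.85) and PSMB2 0.15 at 59.6 RPKM. PSMB1 was the exception at -0.15 (implied SE 0.84, 52.9 RPKM in the authors' deposited table).

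Interferon-induced PSMB8, PSMB9 and PSMB10 take the places of PSMB5, PSMB6 and PSMB7 in the immunoproteasome, which favours peptides for HLA class I. All 3 were expressed and stood close together, at log2 fold changes of 0.18, 0.18 and 0.25 in the authors' deposited table, with implied SEs of 1.22, 1.15 and 0.87. Their levels there were 13.6, 13.6 and 38.8 RPKM. They were less abundant than the subunits they replace. PSMB5 had 3.03 times the RPKM of PSMB8, PSMB6 6.02 times that of PSMB9 and PSMB7 1.49 times that of PSMB10. Summed, the immunoproteasome subunits had 66.1 RPKM and the constitutive ones 181 RPKM. The difference in log2 fold change, immunoproteasome minus constitutive subunit, was 0.00 for PSMB8 and PSMB5, -0.10 for PSMB9 and PSMB6 and 0.18 for PSMB10 and PSMB7, all far below the implied errors. With the trend of all genes with GC content, length and expression removed, the differences were -0.04, -0.04 and -0.07 in the same order, so that the last changed sign. The values of PSMB8, PSMB9 and PSMB10 were then 0.06, 0.11 and 0.01, with a median of 0.06 instead of 0.18. No difference in the balance of the core types was detectable. PSMB8 (hg19 chr6:32808494-32812480) and PSMB9 (chr6:32811913-32827362) are read from opposite strands and overlap by 568 bases, and TAP1 lies opposite PSMB9 over 8770 bases. Overlaps are given here between whole gene spans, introns included. The sources used here do not say whether reads were counted by strand, so the assignment of reads in those stretches is uncertain.

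**Figure D3:**
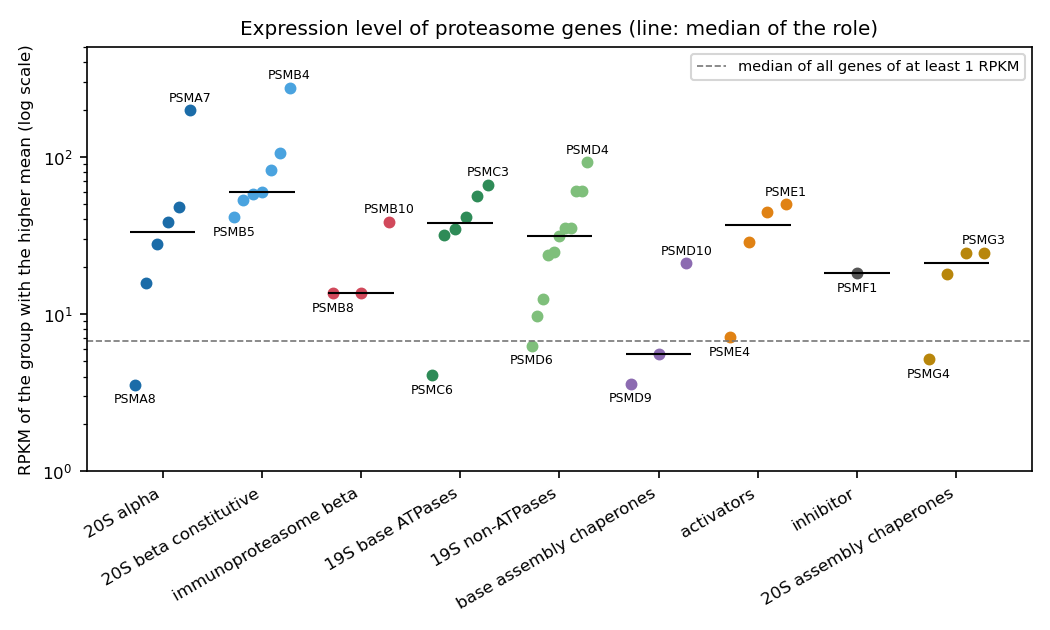
RPKM of the treatment with the higher mean (vertical axis, log scale) for each measured proteasome gene, grouped by role, with the lowest and highest member of each role named and the role's median as a line. Levels run from 3.56 RPKM (PSMA8) to 276 RPKM (PSMB4), and 39 of 45 members lie above the median gene at 6.76 RPKM (dashed).

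Transcript levels within the machine were uneven, although its subunits assemble in equal numbers within a ring. Across the 29 measured constitutive subunits of core and cap, without PSMA8, the highest RPKM in the authors' deposited table was 67.3 times the lowest. Their median was 41.3 RPKM. RPKM is per length of transcript, so these levels can be compared between genes as far as the unnamed transcript models allow. They are the level of the treatment with the higher mean and not of 1 fixed treatment.

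The ATPases PSMC1 to PSMC6 form the ring that unfolds substrates. Of the 6, 4 were above 0, with a median of 0.15. In the authors' deposited table PSMC3 had a log2 difference of 0.26 (implied SE 0.90, 66.6 RPKM), followed by PSMC4 at 0.23, PSMC5 at 0.17 and PSMC1 at 0.13. PSMC2 was at -0.20 (implied SE 0.87, 41.3 RPKM) and PSMC6 at -0.03 there. PSMC6 was also the least abundant of the ring, at 4.10 RPKM, where the other ATPases had 31.9 RPKM or more in the authors' deposited table.

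Of the 11 other cap subunits 10 were above 0, with a median of 0.16. For PSMD1, a large scaffold subunit of the base, the authors' deposited table gave a log2 difference of 0.36 (1.28-fold, implied SE 0.88, p = 0.683, 24.9 RPKM), the smallest p-value of any member. PSMD3 and PSMD6, both of the lid, had 0.32 (implied SE 0.94, 61.0 RPKM) and 0.28 (implied SE 1.04, 6.30 RPKM) there. PSMD2, the other scaffold, had 0.19 at 60.7 RPKM, and the ubiquitin receptor PSMD4 had 0.16 at 92.3 RPKM in the authors' deposited table. PSMD14, the deubiquitinase that removes the ubiquitin chain from the substrate, had 0.03, and its partner PSMD7 had 0.16 there. The lid subunits PSMD8, PSMD11 and PSMD13 had 0.20, 0.13 and 0.07, and PSMD12 was the only one below 0, at -0.02 in the authors' deposited table (implied SE 0.86, 12.6 RPKM). The row of EIF2B5 spans the whole of PSMD2 on the same strand and was at 13.2 RPKM, so some reads could have been assigned to either.

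Assembly factors were split. The base chaperones PSMD9, PSMD5 and PSMD10 stood at 0.43, 0.10 and -0.20 (log2) in the authors' deposited table. PSMD10, also known as gankyrin, is also a binding partner of the retinoblastoma protein (implied SE 0.94, 21.1 RPKM). The core chaperones PSMG1 and PSMG2, which act as a dimer, were both below 0, at -0.16 and -0.40 there. The members of the second dimer were above 0, with PSMG3 at 0.19 (implied SE 0.97, 24.6 RPKM) and PSMG4 at 0.04 in the authors' deposited table. Antisense transcripts overlap some of these genes. PSMD5-AS1 shares 18157 bases with PSMD5 and had -0.32 at 4.73 RPKM, close to the 5.54 RPKM of PSMD5 itself in the authors' deposited table. PSMG3-AS1 shares 933 bases with PSMG3 and had -0.44 at 1.65 RPKM there. CEP76, at 2.34 RPKM, lies opposite PSMG2 over 40945 bases. AP005482.1, at 3.87 RPKM, shares 4734 bases with PSMG2 on the same strand. TUBB2B, at 17.6 RPKM, lies opposite PSMG4 over 328 bases. In all, 16 of the 46 members overlap another gene of at least 1 RPKM, 14 of them on the opposite strand. FTSJ3, with a log2 fold change of 0.66 at 21.4 RPKM, lies opposite PSMC5 over 2861 bases. BECN1, at 14.7 RPKM, lies opposite PSME3 over 8966 bases, and DNAJC2, at 9.34 RPKM, opposite PSMC2 over 620 bases.

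Activators open the core without the ATPase cap. PSME1 and PSME2, which form the interferon-induced PA28 ring, stood at -0.04 (log2, implied SE 0.90, 50.01 RPKM) and 0.12 (28.9 RPKM) in the authors' deposited table. The nuclear activator PSME3 had 0.18 at 44.8 RPKM there. PSME4, the large activator known as PA200, had 0.23 (implied SE 0.87, 7.15 RPKM in the authors' deposited table). PSMF1, first described as an inhibitor of the core, had 0.16 there (implied SE 0.92, 18.3 RPKM).

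Among the members, the fold change followed the GC content of the transcripts. Across the 44 members with a GC value Pearson's r was 0.62 and Spearman's rho 0.64, given as a description because the genes share the same 4 libraries. The same trend ran through all genes, with a Pearson's r of 0.38 and a Spearman's rho of 0.47 across 11104 genes. Of the 22 members of lower GC content (36.1% to 48.3%) 10 were below 0, with a median of 0.03. Of the 22 of higher GC content (48.7% to 61.9%) 1, PSME1, was below 0, with a median of 0.18. With RPKM the members' rho was 0.20, and with transcript length 0.12.

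When the trend with GC content, length and expression over all genes was removed, 34 of 44 members were above 0 and the median was 0.11, against 50.2% of 11104 genes and a median of 0.00 over all of them. PSMD9, PSMD1, PSMD6 and PSME4 then stood highest, at 0.42, 0.41, 0.40 and 0.38, and PSMG2 lowest at -0.27. The cap's non-ATPase subunits were above 0 in all 11 members (median 0.17), from PSMD13 at 0.02 to PSMD1 at 0.41. The core chaperones PSMG1 to PSMG4 were above 0 in 0 of 4 (median -0.05). Of these, PSMG3 at -0.02 and PSMG4 at -0.005 lay close to 0. All these values are smaller than the implied SEs, which are 0.86 or more in both roles. The median of the alpha subunits was 0.11 after removal and -0.02 before it. Whether GC content has a part in the fold changes was not tested.

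**Figure D4:**
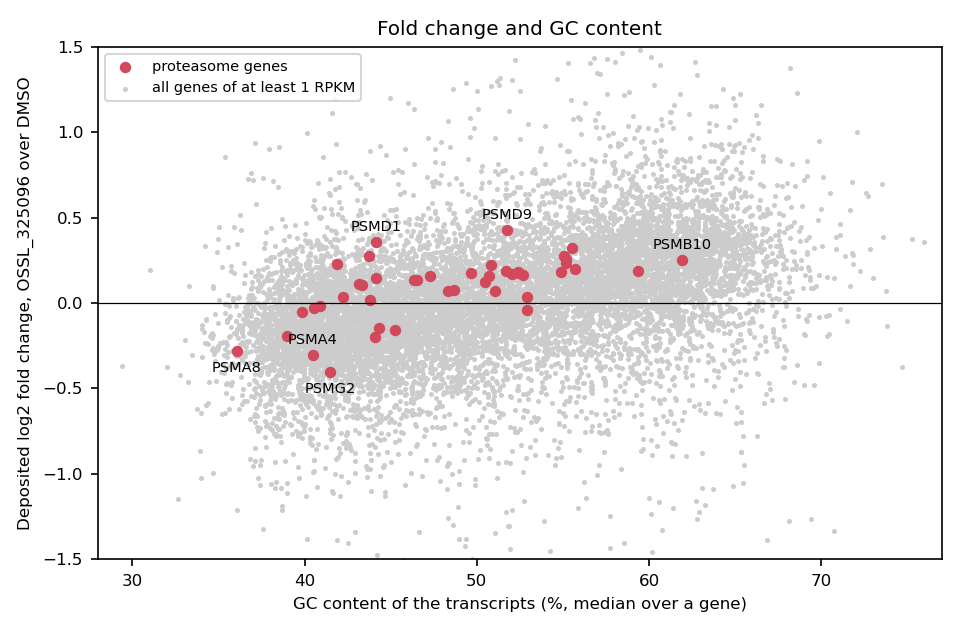
Deposited log2 fold change, OSSL_325096 over DMSO (vertical axis), against the GC content of a gene's transcripts (horizontal axis, %), for 44 proteasome genes (red) and 11104 genes of at least 1 RPKM (grey); genes beyond the axes are not drawn. Members run from PSMA8 at 36.1% to PSMB10 at 61.9% GC, with a Spearman's rho of 0.64, against 0.47 across all genes.

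Proteins that work with the proteasome but fall outside the rule were described by lists chosen from textbook knowledge. Among all genes of at least 1 RPKM, 51.0% were above 0 and 9.90% were at least 1.5-fold from 1. Of 11 proteasome partners 3 were above 0, with a median of -0.03, and 0 reached 1.5-fold. With the trend with GC content, length and expression removed, the partners' median was 0.06. ADRM1, a ubiquitin receptor of the cap, was the highest at 0.47 and 103 RPKM in the authors' deposited table (implied SE 0.90). UCHL5 and USP14, deubiquitinases of the cap, had -0.13 and -0.15 there. POMP, a chaperone of beta ring assembly, had -0.03 at 41.3 RPKM, and the lowest of the list was KIAA0368 (ECM29), a quality control factor, at -0.17 in the authors' deposited table. Of the shuttle proteins that carry ubiquitinated substrates, 5 of 6 above 1 RPKM had values above 0 (median 0.10), from UBQLN2 at -0.46 to UBQLN4 at 0.31 in the authors' deposited table. With the trend removed, the median of the shuttle proteins was 0.17.

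NFE2L1 is the transcription factor that raises proteasome genes when proteasome activity is short. It is freed by the p97 ATPase VCP, the glycosidase NGLY1 and the protease DDI2. In the authors' deposited table NFE2L1 had 148 RPKM and a log2 difference of -0.23 (implied SE 1.18, p = 0.844). VCP had 0.39 (implied SE 0.87, 40.6 RPKM), DDI2 0.28 and NGLY1 -0.03 there. The p97 cofactor NSFL1C was highest of that list at 0.44 and FAF2 lowest at -0.37 in the authors' deposited table, with 6 of 11 above 0 and a median of 0.17. Interferon-induced genes of antigen processing were above 0 in 3 of 5 (median 0.14; TAP2 not analysed here), from IRF1 at -0.16 to NLRC5 at 0.34, and TAP1 was at 0.22 in the authors' deposited table. With the trend with GC content, length and expression removed, the median of the NFE2L1 and p97 list was 0.12. That of the interferon-induced genes was 0.04. As with the proteasome genes, 0 members of the 4 lists passed an adjusted p of 0.05.

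**Figure D5:**
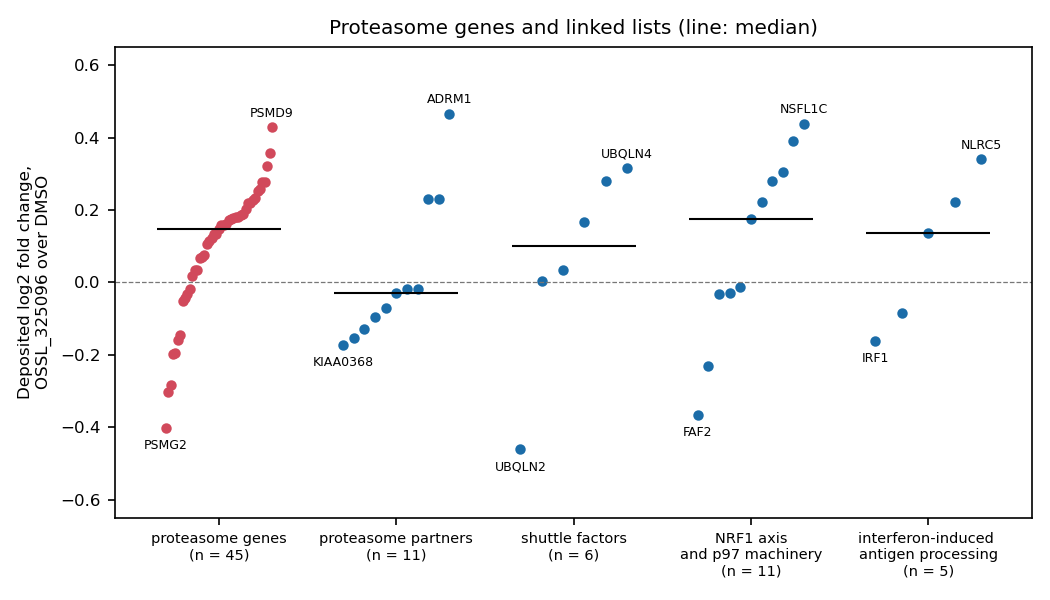
Deposited log2 fold change, OSSL_325096 over DMSO (vertical axis), for the proteasome genes (red, n = 45) and for the measured genes of 4 linked lists (blue), each sorted by value, with its median as a line and its lowest and highest gene named. Medians run from -0.03 (proteasome partners) to 0.17 (NFE2L1, also called NRF1, and p97 machinery), and all points lie between -0.46 and 0.47.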

How the data were processed

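RNA sequencing values of 4 libraries, 2 per treatment and 1 of each line within a treatment, were available as a single table with 6 columns of values and 0 columns of single libraries. Per the series' design text, Biomedical Genomics Workbench 5 was used to map reads to hg19, compute RPKM and compare the treatments. How reads were counted, by strand or not, on which annotation, and by which test they were compared is not stated. Per the file headers, the deposited RPKM is that of whichever treatment had the larger mean. The authors deposited a log2 fold change, read here as OSSL_325096 over DMSO from the table's title, and again as a signed fold score. They also deposited, per the file headers, p-values in unadjusted, false discovery rate and Bonferroni form.

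From these, genes of at least 1 RPKM were kept (11324), and p-values were adjusted over them by the Benjamini-Hochberg method in place of a planned limma fit, which needs single libraries. The implied SE is the size of a log2 fold change over the normal quantile that belongs to its deposited p-value. GC content and length were medians over transcripts of GENCODE 44 mapped to GRCh37, found for 98.1% of kept genes, and the regression used terms up to degree 3 (15.8% of the variance explained). The adjustment and regression were checked on simulated data. Members and lists were chosen with earlier results of these data known. A gene of a linked list is not reported here. The log2 fold change, implied SE and RPKM were given for the highest and lowest member of each role, the 10 largest absolute fold changes, the 3 highest RPKM, the 3 smallest p-values and the catalytic subunits, 25 genes in all. Python 3.11.15, pandas 2.3.3, numpy 2.4.6 and scipy 1.17.1 were used.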

Additional observations from a re-analysis of the deposited data

How the results depend on the processing

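Of 73 recomputed values, 71 kept their direction and stayed within a tolerance of the value reported. The settings were no RPKM minimum, a minimum of 5 RPKM and centring on the median gene. Others were removal of the trend with GC content, length and expression, and omission of genes with a same-named pseudogene. A shorter promoter window and the authors' own adjusted p-values were also used. Addition of the rows PSMA1_2 and PSMA2_2, and omission of PSMA8, were 2 settings chosen after seeing the data. The rows PSMA1_1 (1.89-fold lower, 9.69 RPKM) and PSMA2_1 (1.18-fold lower) were not added. The tolerance was 1.5 times for counts and shares, and for medians the 0.18 standard deviation across members, which is as large as most of the medians. Within it, removal of the trend gave a median of 0.06 instead of 0.18 for the immunoproteasome subunits and of 0.24 instead of 0.10 for the base chaperones. The median of the members ran from 0.11 to 0.17. Many of the 73 values had little or no room to change. The 15 without an RPKM minimum could not differ, because all 45 measured members are above 1 RPKM. Centring, with 15 more, only subtracted 0.01 from every log2 fold change. The 2 values that changed came from removal of the trend. With the trend removed, 1 member was at least 1.2-fold lower instead of 3, and the median of the alpha subunits was 0.11 instead of -0.02; the cause was not tested. No paired analysis was possible because the table holds no values of single libraries. Leaving out each replicate was not run for the same reason. The depth is unknown, which limits what can be said of low genes such as PSMA8, PSMD9 and PSMC6.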

Other observations

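The symbol PSMC3IP shares the prefix but is no proteasome gene. PSMC3IP, a partner in homologous recombination that is named for its binding to PSMC3, was listed at -0.54 (log2) in the authors' deposited table (implied SE 1.15, 12.04 RPKM), where PSMC3 itself had 0.26. The table also holds 30 rows named as pseudogenes of proteasome genes, for 10 of the 46 members and for PSMA2, outside the rule. All were listed at 0 RPKM. PSMC1 alone has 13 such rows.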
